A study of Homo sapiens with 7 samples.

Results

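The STAT genes encode transcription factors that carry cytokine and growth factor signals to the nucleus, and the 6 described here were STAT2, STAT3, STAT4, STAT5A, STAT5B and STAT6. CTCF peaks of K562 cells were assigned to a gene when they overlapped it or lay within 20 kb of it, with gene borders from the GENCODE annotation of GRCh37 (hg19). This choice held 21 of the 33094 peaks of control cells and 23 of the 32917 peaks of cells treated with pyridostatin (PDS), which fell into 25 loci. A total of 6 of the 20176 coding genes were thus examined.

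K562 is an established erythroleukaemia cell line, and PDS is a small molecule that stabilises G-quadruplexes (G4s), structures that G-rich DNA can fold into. Control cells were untreated, and treated cells received 10 μM PDS for 24 h. Chromatin immunoprecipitation with a CTCF antibody was done on 2 samples per condition, and with nonspecific IgG on 1 sample of untreated and 2 of treated cells, which makes 7 samples. The deposited data used here were 2 peak lists, each called once on both CTCF replicates of a condition. Neither list gave a value per replicate or a read count, so no SD, no test between conditions and no sequencing depth could be obtained. The study asked whether a G4-favouring treatment alters the sites that CTCF occupies. Because the enrichment of a peak was taken over the IgG of the same condition, fold levels were not compared between conditions, and a difference in IgG cannot be told apart from one in CTCF. A peak was instead placed by its fold percentile, the percent of peaks of the same list with a lower fold. As a check of the cell line, both lists held 0 peaks over MTAP, CDKN2A and CDKN2B, tumour suppressor and metabolic genes on chromosome 9 that K562 cells lack, and over the 206670 bp between their outer borders. The nearest control peaks lay 1876335 bp before and 4735277 bp after this stretch, and the nearest PDS peaks 1876285 bp and 4882997 bp. Of all coding genes, 22.9% had no control peak and 26.4% no PDS peak in or within 20 kb of the gene.

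Receptor-bound JAK kinases phosphorylate a STAT protein, which then dimerises, enters the nucleus and binds its target promoters. In K562 cells the BCR-ABL1 kinase drives STAT5 activity without a cytokine. CTCF is a zinc finger protein that binds an asymmetric DNA motif and, together with cohesin, anchors chromatin loops, most often at motif pairs that point towards each other. The CTCF consensus from ChIP-exo has 15 positions, of which 11 name a base or a choice of bases.

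An exact match to this consensus lay in 10 of the 25 loci, within the stretch covered by both peaks or, for a peak of a single list, within that peak. These sequences are shown because they mark where in each peak a CTCF site can be placed and which way it points. Capitals mark the 15 consensus positions, and the sequence is written 5′ to 3′ on the strand named.
Upstream of STAT2, over APONP, chr12:56771194-56771222, plus strand: acaggatGCAGCAGGAGGCAGTaaaggag
NAB2 exon 6, past the 3′ end of STAT6, chr12:57487208-57487236, minus strand: aggcaggTCAGCAGGGGGCGGCgtcagcc
Upstream of the canonical STAT6 start, chr12:57506268-57506296, minus strand: aattcagGCACCAGGGGGCAGCataggcc
Between the canonical STAT6 and LRP1 starts, chr12:57521151-57521179, plus strand: acgccgcCCAGAAGGGGGCAGTgaccaaa
Upstream of KCNH4, past the 3′ end of STAT5B, chr17:40333486-40333514, minus strand: gtcaactCCAGTAGGCGGCACTgtgaacc
STAT5B intron 5, chr17:40374329-40374357, plus strand: tacagggTCAAAAGGGGGCGCTggtgggg
Between STAT5A and STAT3, chr17:40464392-40464420, plus strand: ccagagaCCAGCAGGTGGCACCacgcggc
STAT3 intron 20, chr17:40474925-40474953, plus strand: tctccacCCACCAGGGGGCAGTaggtgct
CAVIN1 exon 2, upstream of STAT3, chr17:40555381-40555409, minus strand: tagggtcCCAGAAGGGGGCAGCagcaggc
CAVIN1 intron 1, upstream of STAT3, chr17:40558223-40558251, minus strand: atttgcgGCACCAGAGGGCGCTccgccca
Of these, 4 lay on chromosome 12, upstream of STAT2 and around STAT6, and 6 on chromosome 17, in the windows of the neighbouring STAT5B, STAT5A and STAT3, where those in STAT5B intron 5 and STAT3 intron 20 lay inside a STAT gene. No locus at STAT4 held one. Read along chromosome 17, the match upstream of KCNH4 was on the minus strand, those in STAT5B intron 5, between STAT5A and STAT3 and in STAT3 intron 20 were on the plus strand, and both matches in CAVIN1 were on the minus strand. The 3 plus-strand matches therefore pointed towards the 2 minus-strand matches beyond the STAT3 start. Contacts between these sites were not measured here.

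The exact consensus was more frequent among these peaks than over each whole list, a comparison that is descriptive and was not tested. In the 200 bp at the peak centre it was present in 9 of 21 control peaks (42.9%, Wilson 95% interval 24.5 to 63.5%), against 13.5% of all control peaks. In the PDS list 7 of 23 peaks had it (30.4%, interval 15.6 to 50.9%), against 9.76% of all PDS peaks. Among the 50.0% of each list with the smallest p-values, the values were 8 of 16 peaks in control cells, against 16.4% of that part of the list, and 6 of 14 in PDS-treated cells, against 13.2%. With at most 1 mismatch the shares were 66.7% in control cells, against 43.2% of all peaks, and 52.2% in PDS-treated cells, against 33.9%. The intervals cover counting error only, because neighbouring peaks are not replicates.

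**Figure D1:**
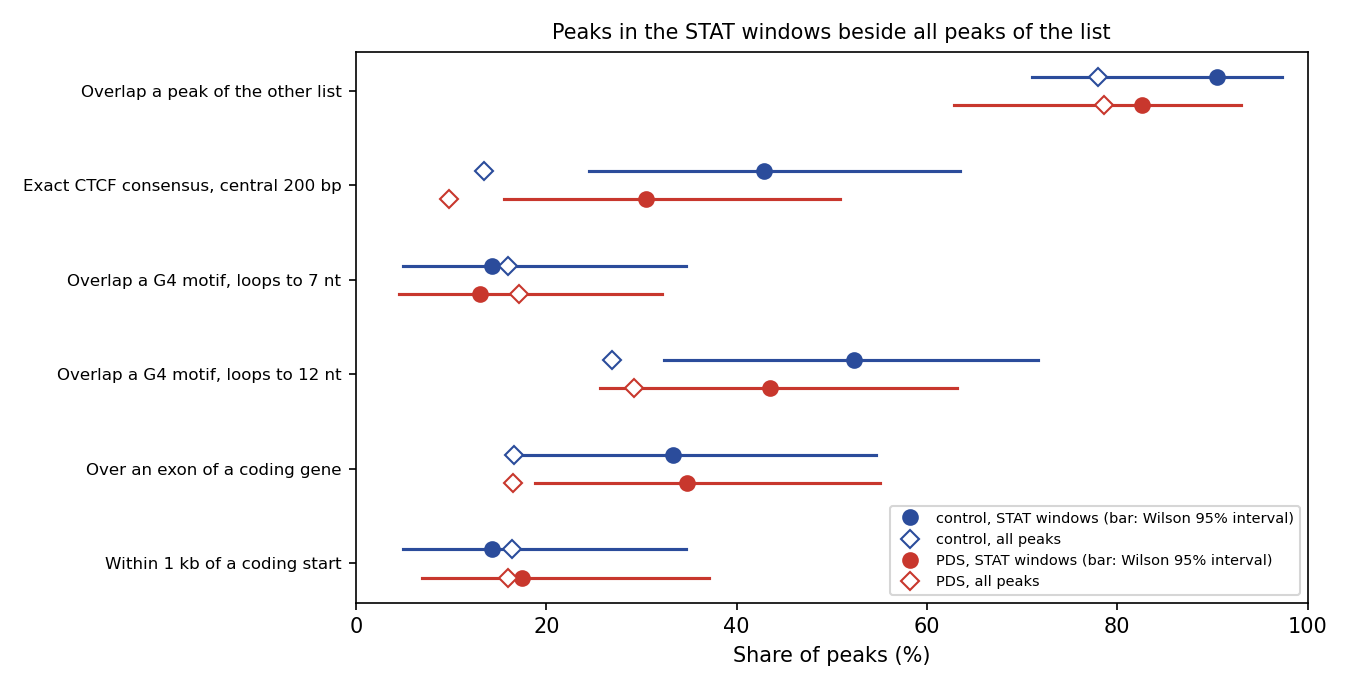
Share of peaks in percent (horizontal axis) with each of 6 properties, for peaks in the STAT windows (filled circles, with Wilson 95% intervals as bars) and for all peaks of the list (open diamonds), in control (blue) and PDS (red). The share with the exact CTCF consensus was 42.9% in the STAT windows and 13.5% over all control peaks, whereas the shares with a G4 motif with loops up to 7 nt were 14.3% and 16.0%.

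Judged by an overlap of 1 bp or more, the CTCF peaks around the STAT genes were largely at the same sites in both conditions. Of the 25 loci, 19 had a peak in both lists, and each of these control peaks overlapped exactly 1 PDS peak and the reverse. The shared peaks were 90.5% of the control peaks in the STAT windows, against 78.0% of the whole list, and 82.6% of the PDS peaks, against 78.6%. A PDS peak was missing for 2 of 21 control peaks (9.52%, interval 2.65 to 28.9%), against 22.0% of all control peaks. A control peak was missing for 4 of 23 PDS peaks (17.4%, interval 6.98 to 37.1%), against 21.4% of all PDS peaks. Both control-only peaks lay in STAT4, whereas the PDS-only peaks lay at STAT6, in STAT5A and before STAT4. The intervals include the background in both lists.

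STAT3 mediates signals of the IL-6 family and is an acute phase factor and oncogene. It is encoded on the minus strand (ENSG00000168610, chr17:40465342-40540558), directly beside STAT5A. Its body held a single peak in each list, at chr17:40474501-40475220 in control cells and chr17:40474501-40475350 in PDS-treated cells. The control peak was 720 bp wide and 81.3-fold enriched, which ranked 634 of 33094 peaks. The PDS peak was 850 bp wide and 56.7-fold enriched, which ranked 134 of 32917. These ranks correspond to the 98.1st and 99.6th percentile, and by p-value the peak stood at 94.4% and 97.1% of the lists. The peak covered coding exon 20 and intron 20, the edge of exon 21 and, in control cells, part of intron 19. The wider PDS peak also covered the rest of intron 19 and part of exon 19. It thus covered the 3′ part of the gene, with its centre 25674 bp from the nearest start of any coding transcript in control cells.

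The sequence of 300 bp at this peak is shown because it carries both the consensus match and the stretch of G runs described next. Capitals mark runs of 3 or more G or of 3 or more C.
STAT3 peak, chr17:40474711-40475010, plus strand: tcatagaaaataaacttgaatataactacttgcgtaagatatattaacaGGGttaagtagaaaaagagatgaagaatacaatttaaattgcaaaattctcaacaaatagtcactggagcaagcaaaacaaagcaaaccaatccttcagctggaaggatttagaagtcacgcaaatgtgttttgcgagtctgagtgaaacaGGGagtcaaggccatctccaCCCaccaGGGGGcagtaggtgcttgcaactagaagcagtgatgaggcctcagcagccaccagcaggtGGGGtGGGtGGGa
No G4 motif (4 runs of 3 or more G, joined by loops no longer than 7 nt, in either orientation) overlapped the peak, and the nearest was 1470 bp from the control peak and 1340 bp from the PDS peak. The nearest approach to one was a stretch of 3 runs at chr17:40474998-40475009, printed here with 7 flanking bases on each side and the runs in capitals.
STAT3 stretch of 3 runs, plus strand: agcaggtGGGGtGGGtGGGagcctcc
This stretch lay 51 bases after the consensus match and 12 bases from exon 20. The consensus match itself held a run of 5 G on the same strand, 55 bases before the 3 runs. A stretch of 3 such runs with loops up to 7 nt was present in 11 of 21 control peaks in the STAT windows, against 33.5% of all control peaks, and in 12 of 23 PDS peaks, against 36.2%. To find 4 runs within the peak, on either strand, loops of up to 37 nt had to be allowed. Only this sequence pattern was searched, and measured G4 sites were not examined here. The study described a site in STAT3 as G4-prone. By quantitative PCR it reported more CTCF at that site after a longer treatment with more PDS. Whether that site lies in this peak was not examined.

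The start of STAT3 carried no CTCF peak. Upstream of the 3′ peak no peak was listed for 80.0 kb in control cells and 79.8 kb in PDS-treated cells, a stretch that contained the canonical STAT3 start. The next peaks lay in CAVIN1, which encodes a coat protein of caveolae. The peak over CAVIN1 exon 2, at −14950 bp from the STAT3 start in control cells, stood at the 39.2nd and 40.2nd percentile in control and PDS-treated cells. The peak in CAVIN1 intron 1 stood at 83.8% and 88.3%. The STAT3 peak and both CAVIN1 peaks differed by at most 4.50 percentile points between the lists by fold, while by p-value the CAVIN1 peaks shifted by −6.40 and 7.30 points. The other 2 peaks in the STAT3 window, over STAT5A exon 19 and between STAT5A and STAT3, shifted by 14.3 and −8.31 points by fold.

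**Figure D2:**
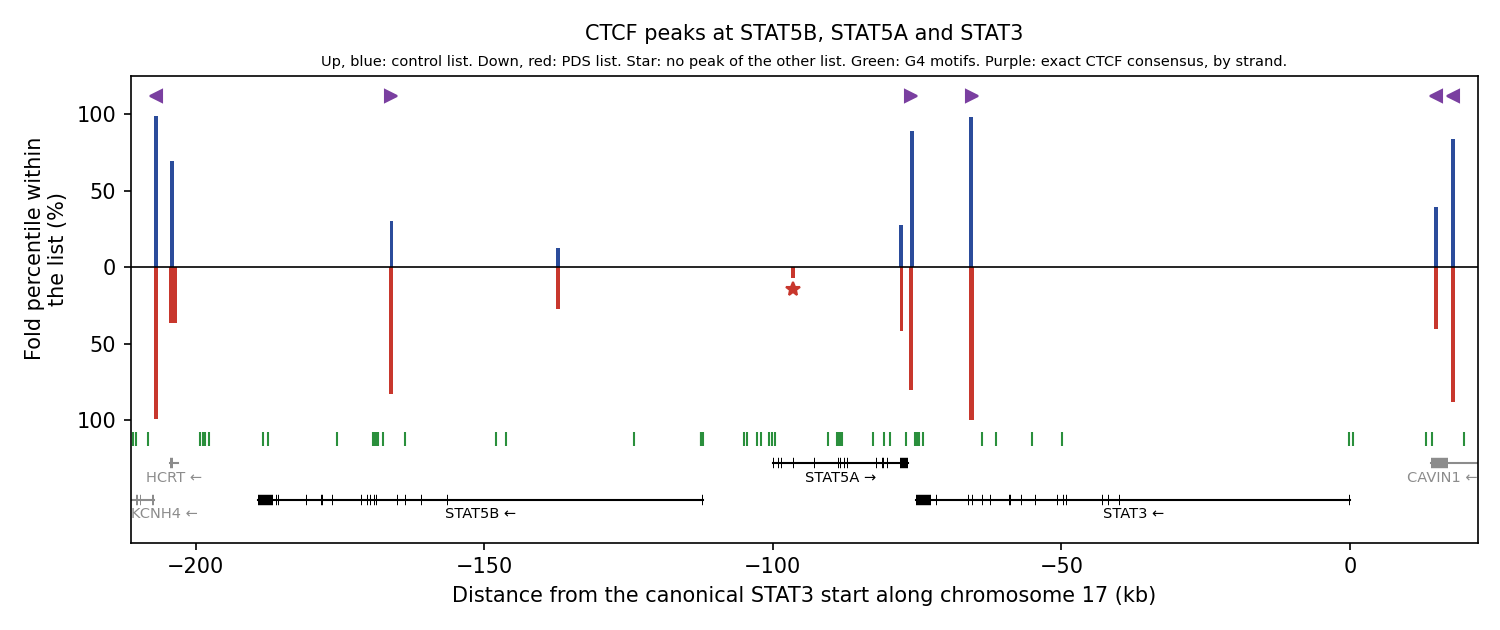
Fold percentile within each list (vertical axis, control upwards in blue, PDS downwards in red) of CTCF peaks against the distance in kb from the canonical STAT3 start on chromosome 17 (horizontal axis), with genes, G4 motifs (green) and exact CTCF consensus matches (purple, pointing along their strand). The STAT3 peak reached 98.1% and 99.6%, and no peak lay between it and the CAVIN1 peaks. The red star marks the PDS-only peak in STAT5A at 7.10%.

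STAT5A and STAT5B encode near-identical factors activated by erythropoietin, growth hormone, prolactin and IL-2, and they lie head to head on chromosome 17. STAT5A (ENSG00000126561, chr17:40439565-40463961, plus strand) had 3 control and 4 PDS peaks in its window, some of which also counted for STAT3. Over its last exon, exon 19, the control peak was 300 bp wide with 19.3-fold enrichment and the PDS peak 600 bp wide with 15.5-fold enrichment, at the 27.6th and 41.9th percentile. Between STAT5A and STAT3 lay a stronger peak, with 50.6-fold enrichment in control cells (88.8th percentile) and 24.3-fold in PDS-treated cells (80.4th percentile). Here the control peak was the wider, with 720 bp against 350 bp. The PDS-only peak spanned the border of intron 3 and exon 4 of STAT5A at chr17:40443851-40444000. It was 150 bp wide with 8.07-fold enrichment, at the 7.10th percentile by fold, and the nearest control peak was 18500 bp away.

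STAT5B (ENSG00000173757, chr17:40351194-40440651, minus strand) had 4 control and 5 PDS peaks, of which 2 in each list lay in introns of the canonical transcript. The intron 5 peak was 20.4-fold enriched in control cells and 25.4-fold in PDS-treated cells. By fold it stood at the 30.2nd percentile in control cells and at the 83.2nd in PDS-treated cells, while by p-value it stood at 82.1% and 57.8%. Fold and p-value thus placed this peak in opposite orders. The intron 1 peak was weak in both lists, at the 12.6th and 27.4th percentile, and its best consensus match had 3 mismatches. Past the 3′ end of STAT5B, the peak before KCNH4, a potassium channel gene, was 92.2-fold enriched in control cells and 50.0-fold in PDS-treated cells, the 98.9th and 99.1st percentile. This was the highest fold among the STAT windows in control cells, and second to the STAT3 peak in PDS-treated cells. The neighbouring peak over HCRT, the gene of the orexin precursor, was 600 bp wide in control cells and 1350 bp in PDS-treated cells and stood at 69.1% and 36.3% by fold, but at 99.0% and 99.1% by p-value.

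STAT6, the mediator of IL-4 and IL-13 signals, had the most peaks, with 7 in control cells and 9 in PDS-treated cells. Its longest annotated span (ENSG00000166888, chr12:57489191-57525922, minus strand) begins upstream of the canonical start at position 57505145, so that several peaks upstream of that start lie inside the gene. All peaks with a G4 motif in the STAT windows were found here, 3 of 21 in control cells (14.3%, interval 4.98 to 34.6%), against 16.0% of all control peaks, and 3 of 23 in PDS-treated cells (13.0%, interval 4.54 to 32.1%), against 17.1%. Both shares were close to the background. In the central 200 bp a motif was present in 2 control peaks, against 9.58% of the list, and 1 PDS peak, against 10.0%. The motifs are shown with their G runs in capitals, written on the G-rich strand.
NAB2 intron 5 motif, chr12:57487014-57487036, plus strand: GGGtGGGGGagtaGGGGaGGGGG
NAB2 intron 5 second motif, chr12:57487096-57487118, plus strand: GGGGGGGcagaaGGGcctgtGGG
STAT6 intron 12 motif, chr12:57496569-57496588, minus strand: GGGaacaGGGGcaGGGtGGG
Upstream of the canonical STAT6 start, chr12:57505646-57505665, plus strand: GGGaGGGagtGGGGGaGGGG
The NAB2 peak overlapped 2 motifs and contained an exact consensus match. The first motif extended past the border of the control peak. NAB2 encodes a co-repressor of EGR factors, and its 3′ end overlaps that of STAT6. The peak was 420 bp wide in control cells and 950 bp in PDS-treated cells, at the 61.0th and 41.3rd percentile. The peak at the border of STAT6 intron 12 and exon 12 was 120 bp and 150 bp wide and stood at 63.1% and 21.0% by fold, while by p-value it stood at 16.6% and 37.2%. The third was centred at −415 bp from the canonical start in control cells and stood at 70.1% and 54.8%. At these 3 peaks with a motif the fold percentile was lower in PDS-treated cells, with shifts from −42.1 to −15.3 points, and the percentile by p-value was higher at all 3, by 8.81 to 20.6 points. Some peaks without a motif showed the same signs. The peak before NAB2 at NEMP1 shifted by −36.8 points by fold and 7.30 by p-value, and the peak by IL23A and PAN2 by −10.9 and 7.53 points. The HCRT peak shifted by −32.8 and 0.08 points. Most peaks without a motif did not show these signs. Over all pairs the 2 measures had the same sign in 37.8%. The share of all pairs with a lower fold and a higher p-value percentile was not obtained, and a link to the motif was not tested. The fold percentile was higher in PDS-treated cells at 11 of the 19 shared peaks, all without a motif. The APONP peak, also without a motif, was lower by both measures, with −44.3 and −11.0 points. Over all 24633 one-to-one pairs the fold percentile was lower in PDS-treated cells in 11980.

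Longer loops added further peaks. With loops of up to 12 nt, 11 of 21 control peaks overlapped a motif, against 26.9% of all control peaks, and 10 of 23 PDS peaks, against 29.2%. These counts and backgrounds contain the peaks with shorter loops, 3 in each list of the STAT windows. Among those added were the STAT2 exon 20 peak, the peaks at NEMP1 and HCRT, the peak between STAT5A and STAT3, where the control peak held 4 such motifs and the narrower PDS peak 1, and both CAVIN1 peaks. A G4 motif with loops up to 7 nt overlapped or lay within 1 kb of 57.1% of control and 60.9% of PDS peaks in the STAT windows, against 43.8% and 46.8% of all peaks.

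The strongest STAT6 peak had no G4 motif. It was centred at −1225 bp from the canonical start in control cells, was 660 bp and 600 bp wide in control and PDS-treated cells, and had 62.0-fold and 34.0-fold enrichment, the 94.2nd and 94.5th percentile. Its best match was the exact consensus on the minus strand shown above, and the motif of the adjoining peak lay 376 bp away. The peak before NAB2 at NEMP1, a nuclear envelope protein gene, stood at 83.9% and 47.1%. Towards LRP1, an endocytic receptor gene, a broad peak of 1020 bp in control cells and 1350 bp in PDS-treated cells stood at 51.0% and 72.6%, and a narrower one with the exact consensus at 26.0% and 32.1%. Both PDS-only peaks of STAT6 lay beside these, at chr12:57517101-57517250 and chr12:57520401-57520700, each 250 bp from a shared PDS peak. They were 370 bp and 220 bp from the nearest control peak. Their folds of 18.5 and 13.6 placed them at 59.5% and 30.6%. Over the whole PDS list, 20.2% of peaks lay within 1 kb of another peak that was shared, and in the STAT windows this held for 4 of 23 peaks.

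**Figure D3:**
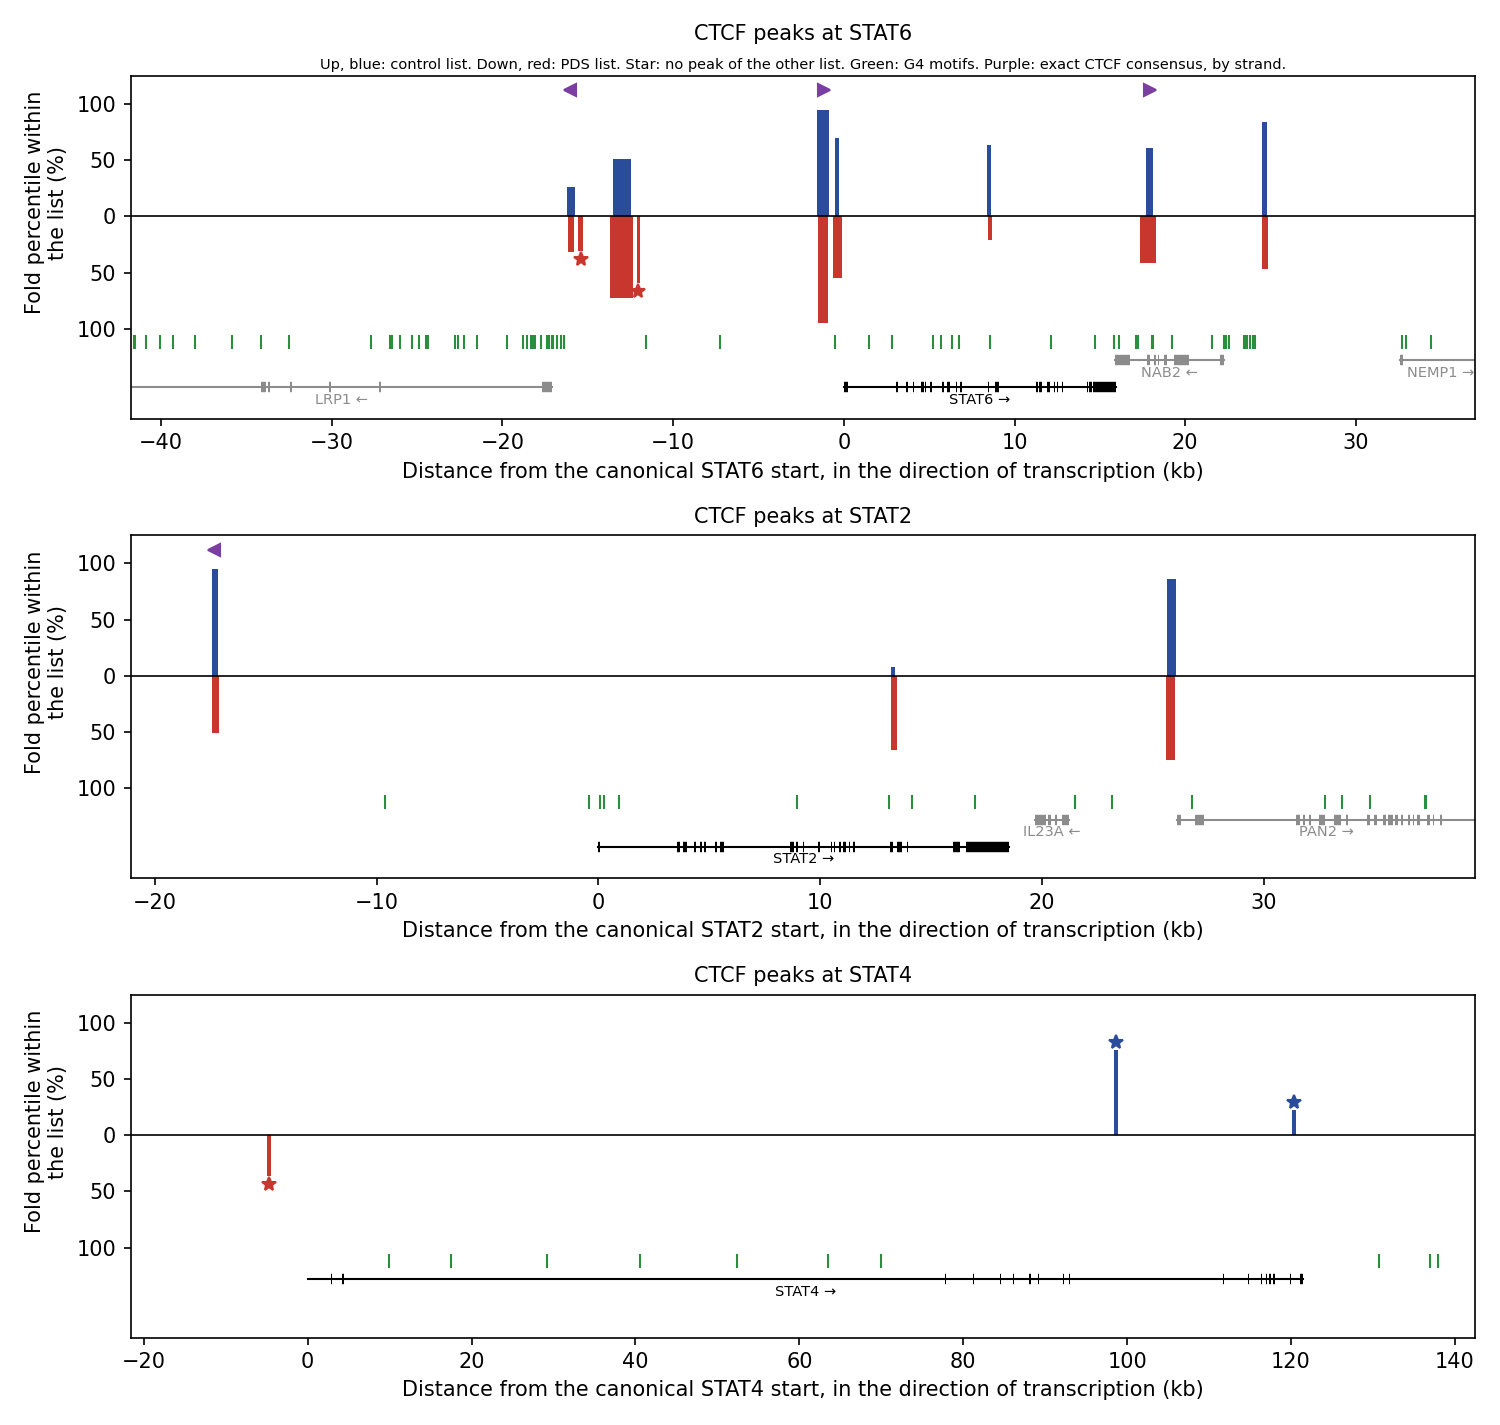
Fold percentile within each list (vertical axis, control upwards in blue, PDS downwards in red) of CTCF peaks against the distance in kb from the canonical start of STAT6, STAT2 and STAT4 in the direction of transcription (horizontal axis), with genes, G4 motifs (green) and exact CTCF consensus matches (purple). Stars mark peaks without a counterpart, of which the 2 control-only peaks lay in STAT4 and 2 PDS-only peaks beside shared peaks before STAT6.

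STAT2 pairs with IRF9 in the response to type I interferons. Its window (ENSG00000170581, chr12:56735381-56753987, minus strand) had 3 peaks in each list, and all 3 were shared. The peak over exon 20 was the weakest shared control peak of the STAT windows by fold, with 9.80-fold enrichment and the 7.51st percentile, and in PDS-treated cells it stood at the 65.9th percentile of that list with 19.9-fold enrichment. By p-value it stood at 31.4% and 39.8%. This difference of 58.4 points was the largest among the 19 shared STAT peaks, and 6.64% of all 24633 one-to-one pairs shifted further in either direction. The best match to the consensus in this peak had 1 mismatch and lay in the coding exon, and it is shown in the same form as the exact matches.
STAT2 exon 20, chr12:56740627-56740655, minus strand: tgaatcgTCAGAAGGGGGCATTacctgct
The peak upstream of STAT2, over the pseudogene APONP, differed in the other direction, with 64.7-fold enrichment and the 95.1st percentile in control cells and 16.8-fold and the 50.8th percentile in PDS-treated cells. By p-value it stood at 56.9% and 45.9%. The peak beyond the 3′ end, by IL23A and PAN2, which encode a cytokine subunit and a deadenylase, stood at 86.0% and 75.2%.

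STAT4, which transmits IL-12 signals in T and NK cells, was the member with the fewest peaks and without a shared one. It is also the longest, with 122021 bp (ENSG00000138378, chr2:191894302-192016322, minus strand). In control cells a peak in intron 23 (chr2:191895241-191895540) had 17.1-fold enrichment, and one in intron 14 (chr2:191917021-191917200) had 37.7-fold enrichment, the 22.4th and 75.6th percentile. The nearest PDS peaks were 33590 bp and 55370 bp away. In PDS-treated cells a single peak of 100 bp, the narrowest width in that list, was found before the start at −4730 bp, with 14.6-fold enrichment, the 36.1st percentile by fold and 2.64% by p-value. None of these 3 peaks held an exact consensus match, and the nearest G4 motif was 10216 bp from the intron 23 peak, 28508 bp from the intron 14 peak and 14572 bp from the peak before the start. At 5.74 motifs per 100 kb STAT4 was also the poorest of the members in G4 motifs, against a median of 13.9 over coding genes.

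Peak density followed a similar order in both lists. Per 100 kb of window, STAT6 had 9.12 control and 11.7 PDS peaks, STAT2 5.12 in both, STAT5A 4.66 and 6.21, STAT3 4.34 in both, STAT5B 3.09 and 3.86, and STAT4 1.23 and 0.617. The median over coding genes was 2.06 in control cells and 1.94 in PDS-treated cells, so that every member except STAT4 lay above it. All 6 genes had a control peak within their borders, against 49.6% of coding genes, and 5 had a PDS peak there, against 46.2%, with STAT4 the exception. These genes were 18607 bp (STAT2) to 122021 bp (STAT4) long, and the background of coding genes was not matched for length. G4 motif density was highest in STAT6, with 73.5 motifs per 100 kb, followed by STAT5A with 49.2, STAT2 with 37.6, STAT5B with 23.5 and STAT3 with 10.6.

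Peaks at the STAT genes lay over coding gene exons in 7 of 21 cases in control cells (33.3%, interval 17.2 to 54.6%), against 16.6% of all peaks, and in 8 of 23 in PDS-treated cells (34.8%, interval 18.8 to 55.1%), against 16.5%. These exons were those of canonical transcripts. Another 5 control peaks lay in the canonical transcript of a coding gene but over no exon, against 33.2% of the list. The remaining 9 lay outside such transcripts, against 50.1%. In PDS-treated cells these were 3 peaks, against 31.6%, and 12 peaks, against 51.9%. Some peaks outside the canonical transcripts still lay within the full span of a coding gene, such as those upstream of the canonical STAT6 start. Only STAT6 had a peak within 1 kb of its own canonical start. A peak centred within 1 kb of a start of any coding transcript was seen in 3 control peaks, against 16.4% of the list, and in 4 PDS peaks, against 15.9%. By p-value, 16 of 21 control peaks and 14 of 23 PDS peaks belonged to the stricter 50.0% of their list.

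At the 19 shared sites, fold percentiles shifted in both directions. The percentile was higher in PDS-treated cells at 11 sites and lower at 8, near the division over all pairs, with 12653 higher and 11980 lower. The median shift was 0.36 points (95% interval of the median −19.7 to 14.3), against 0.69 points over all pairs, and for peaks in gene bodies only it was 10.2 points. The median size of a shift, irrespective of sign, was 14.8 points, against 19.7 points over all pairs. When peaks were ranked by p-value instead, the shift had the same sign at 6 of 19 sites (31.6%), against 37.8% of all pairs. The direction of a shift at a single site was thus often not the same by both measures. Among the 10 loci with an exact consensus match, shifts by fold reached −44.3 points at the APONP peak and 52.9 points at the STAT5B intron 5 peak. The PDS peak was the wider at 13 of the 19 sites (68.4%), against 49.6% of all pairs, and the control peak at 4, with a median width ratio of 1.25, against 1 over all pairs. Peak borders moved in steps of 60 bp in the control list and 50 bp in the PDS list.

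**Figure D4:**
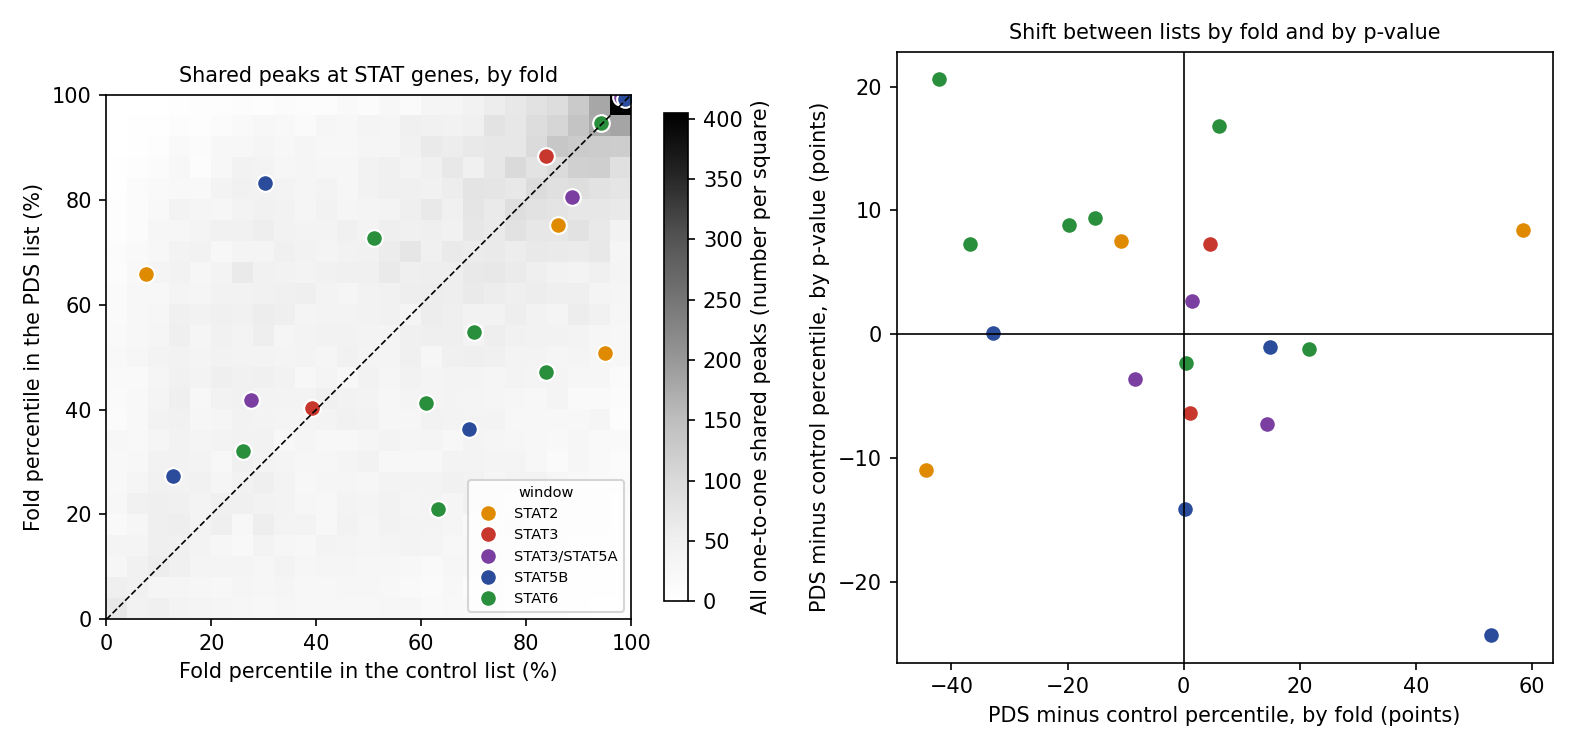
Left, fold percentile in the control list (horizontal axis) against that in the PDS list (vertical axis) for the 19 shared STAT peaks (coloured by window) over the number of all one-to-one pairs per square (grey). Right, the PDS minus control shift in percentile points by fold (horizontal axis) and by p-value (vertical axis). Of the 19 peaks, 11 lie above the diagonal and 8 below, and 6 have the same sign by both measures.

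In control cells the median fold of the STAT peaks was 33.9, against 26.5 for the whole list, and the median percentile was 69.1 (95% interval 30.2 to 86.0). For the 12 control peaks that touched a gene body the median percentile was 40.6. In PDS-treated cells the median fold was 16.8, against 16.7 for the whole list, with a median percentile of 50.8 (interval 36.3 to 75.2).

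Peaks were also counted at a list of genes that act with the STAT proteins. Of 38 receptors, kinases, inhibitors, partners and targets, 35 had a peak in or within 20 kb of the gene in each list, against 77.1% of coding genes in control cells and 73.6% in PDS-treated cells. The genes without one were IFNGR1, an interferon gamma receptor subunit, and the inhibitors SOCS6 and PIAS2. Summed over genes, 26 of 128 peaks were control-only, against 22.0% of all control peaks, and 27 of 130 were PDS-only, against 21.4% of all PDS peaks, so that both were near the background. Among receptors, IL6R, which binds IL-6, had 7 control and 5 PDS peaks, and the leptin receptor gene LEPR had 5 in both. Among kinases, JAK1 had 5 in both lists, TYK2 had 4 and 3, and JAK3 had 2 and 5. Among inhibitors, the phosphatase gene PTPN6 had 6 in both, SOCS7 5 and 6, and CISH, a STAT5-induced inhibitor, 4 and 7. IRF9, the partner of STAT2, had 2 control and 1 PDS peak. Among target genes, the transcription factor gene IRF1 had 9 control and 13 PDS peaks, the survival gene BCL2L1 had 5 and 6, and the adhesion gene ICAM1 had 5 and 4.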

How the data were processed

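The authors aligned the reads of 7 samples to hg19 with Bowtie2 2.2.3, dropped duplicate and poorly mapped reads, and ran PePr once for each condition, with both CTCF replicates against IgG. The labels describe single-end and the methods paired-end sequencing. The authors also deposited a score per peak, which played no role here. The fold enrichment over IgG, as deposited, ranked peaks within a list. The deposited p-value, from PePr, gave another ranking, and the adjusted p-value was left out. Depth per sample is unknown.

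An overlap of 1 bp or more made a pair of peaks shared. Motifs and exons were read from the GRCh37 genome and GENCODE canonical transcripts, and intervals are Wilson 95% intervals or order-statistic intervals of a median. The STAT members, the pathway list and all settings were chosen with earlier results of these data known. The genes named were the members, the coding genes that their peaks overlapped or neighboured, and the 2 pathway genes of each role with the most peaks in either list, with MTAP, CDKN2A and CDKN2B as a check of the cell line. The pathway genes without a peak were named after their values were seen. A further STAT gene is not reported here. Motif search and overlap were tested on simulated data, where 200 of 200 planted motifs were found. Computation used samtools 1.23.1 and Python 3.11.15 with pyfaidx 0.9.0.4, scipy 1.17.1, numpy 2.4.6, matplotlib 3.10.9 and pandas 2.3.3. Alternatives varied the window, the overlap, the stringency of the lists and the motifs.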

Additional observations from a re-analysis of the deposited data

How the results depend on the processing

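Of 44 alternatives, 33 left a value within its interval or within 1.5 times its count, and 11 moved it. Relative to the whole list, the direction turned in some of them. With gene bodies only, the median fold percentile of control peaks was 40.6 in place of 69.1, below the middle of the list, and the median shift at shared peaks was 10.2 points in place of 0.36. The same setting gave a shared share of 76.9% of PDS peaks, below the 78.6% of the whole list, and a G4 share of 16.7% of control peaks, above 16.0%. Counting gene bodies only gave 12 control and 13 PDS peaks. A 50 kb window gave 41 PDS peaks, and the stricter 50% of the list by p-value gave 14. Loops of up to 12 nt raised the share of peaks with a G4 motif to 52.4% in control cells and 43.5% in PDS-treated cells, and runs of 2 or more G raised it to 95.2% and 95.7%. The shares with loops of up to 7 nt were below those of all peaks, and the shares with loops of up to 12 nt were above theirs of 26.9% and 29.2%. In the central 200 bp the share was 4.35% in PDS-treated cells. With at most 1 mismatch, the CTCF consensus was present in 66.7% of control and 52.2% of PDS peaks. No paired analysis was possible because the replicates of a condition were merged into a single peak list, and for the same reason no replicate could be left out. The number of peaks limits every share, and the depth behind the folds is unknown. Whether the extra IgG sample of PDS-treated cells or a difference in depth changed the lists was not tested. The longest stretch that a peak shared exactly with the window of another STAT gene was 46 bases, in the CAVIN1 intron 1 peak.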

Other observations

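The loop length needed to find 4 G runs inside a peak differed between peaks of the same STAT gene. In control cells it was 8 nt in the STAT2 exon 20 peak, 34 nt in the peak by IL23A and 64 nt in the APONP peak. Around STAT6 it ranged from 3 to 42 nt in control cells. Around STAT5B the control values were 8 nt in the HCRT peak and 14 nt in the peak before KCNH4. In STAT5B intron 5 the control value was 50 nt, and in intron 1 it was 63 nt. The value depended on the peak borders, since in the PDS list it was 34 nt before KCNH4 and 48 nt at APONP. The PDS-only STAT6 peak at chr12:57517101-57517250 held no set of 4 runs on either strand. In the STAT4 peak of intron 23, loops of up to 92 nt were needed to find 4 runs, and the peaks in STAT4 intron 14 and before STAT4 held no such set of runs on either strand.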
